A study of Mus musculus with 6 samples.

Results

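The 10 genes described here encode proteins of endothelial cell-cell junctions: the cadherins Cdh5 and Cdh2, the immunoglobulin-family adhesion molecules Pecam1, Icam2, Esam, F11r, Jam2 and Jam3, the claudin Cldn5 and the scaffold Tjp1. They were taken by symbol from the 17463 gene entries of the deposited table, and each had 1 entry. RNA sequencing was done on mouse lung endothelial cells (MLECs) grown in endothelial medium with serum and no treatment, with genotype labels of HEY1-3KR KI for 3 libraries and HEY1-WT KI for 3. All 6 came from mice labelled Hey1 iEC-KO, a knockout of Hey1, which carried either a wild-type or a 3KR HEY1 knock-in (iEC-KI). HEY1 is a DNA-binding repressor downstream of Notch, and the labels do not spell out 3KR or iEC, or give the driver of the knockout, the age of the mice, how many mice were used or whether replicate libraries stand for separate mice or separate cultures. The spread behind each p-value is that between these libraries and may be technical only, and genotype and any shared culture day cannot be told apart.

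Endothelial cells are joined by adherens junctions, built on VE-cadherin (Cdh5) linked through catenins to actin, and by tight junctions, built on claudins and the junctional adhesion molecules (JAMs) bound by scaffolds such as ZO-1 (Tjp1). N-cadherin (Cdh2) is the second cadherin of endothelium and is also made by fibroblasts, smooth muscle, pericytes and mesothelium. In bulk RNA of mixed cells the balance of VE-cadherin and N-cadherin transcripts does not by itself measure how endothelial a culture is. In the lung, endothelial junctions set the permeability of the capillary wall.

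Values are FPKM, fragments counted relative to transcript length and to all mapped fragments of the library, which allows levels of different genes to be compared. Summed FPKM was between 258614 and 265934 per library, and read totals were not part of the sources. Libraries of a genotype correlated more closely (0.994 to 0.996 across tested genes) than libraries of different genotypes (0.960 to 0.964). The cultures held strong signal of other cell types, whatever their label. The macrophage and leukocyte list of 12 genes summed to between 3663 and 3731 FPKM in HEY1-WT KI against 4166 to 4416 FPKM in HEY1-3KR KI, led by Lyz2. The list of 21 endothelial genes that are not junction genes summed to between 189 and 197 FPKM and to between 335 and 344 FPKM. Smooth muscle and pericyte genes summed to between 1062 and 1111 FPKM over the 6 libraries, with Acta2 at 692 and 707 FPKM, and the fibroblast list of 9 genes to between 653 and 657 and between 1155 and 1173 FPKM. In bulk RNA, fewer cells of a type and less RNA per cell cannot be told apart.

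All 10 junction genes changed between the genotypes. Cdh5, Cldn5, Esam, Icam2, F11r, Pecam1, Jam2 and Tjp1 rose in HEY1-3KR KI, by between 1.18-fold and 2.00-fold, whereas Cdh2 was 2.37-fold lower and Jam3 1.41-fold lower. The test was limma on log2(FPKM + 1) with Benjamini-Hochberg adjustment over the 11427 genes that reached 1 FPKM in 3 or more libraries, at an adjusted p below 0.05. The 10 genes passed that filter with at least 3 FPKM in each of the 6 libraries. Changes were common in these libraries: 53.2% of tested genes were called, 29.9% higher and 23.4% lower. The groups did not overlap for any of the 10 genes, and for 61.2% of tested genes. The 10 genes had a median log2 fold change of 0.67 and a median absolute log2 fold change of 0.73, beside 0.02 and 0.17 for all tested genes. Folds are ratios of mean FPKM, and log2 fold changes are differences of log2(FPKM + 1), a scale on which the changes of low genes look smaller.

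**Figure D1:**
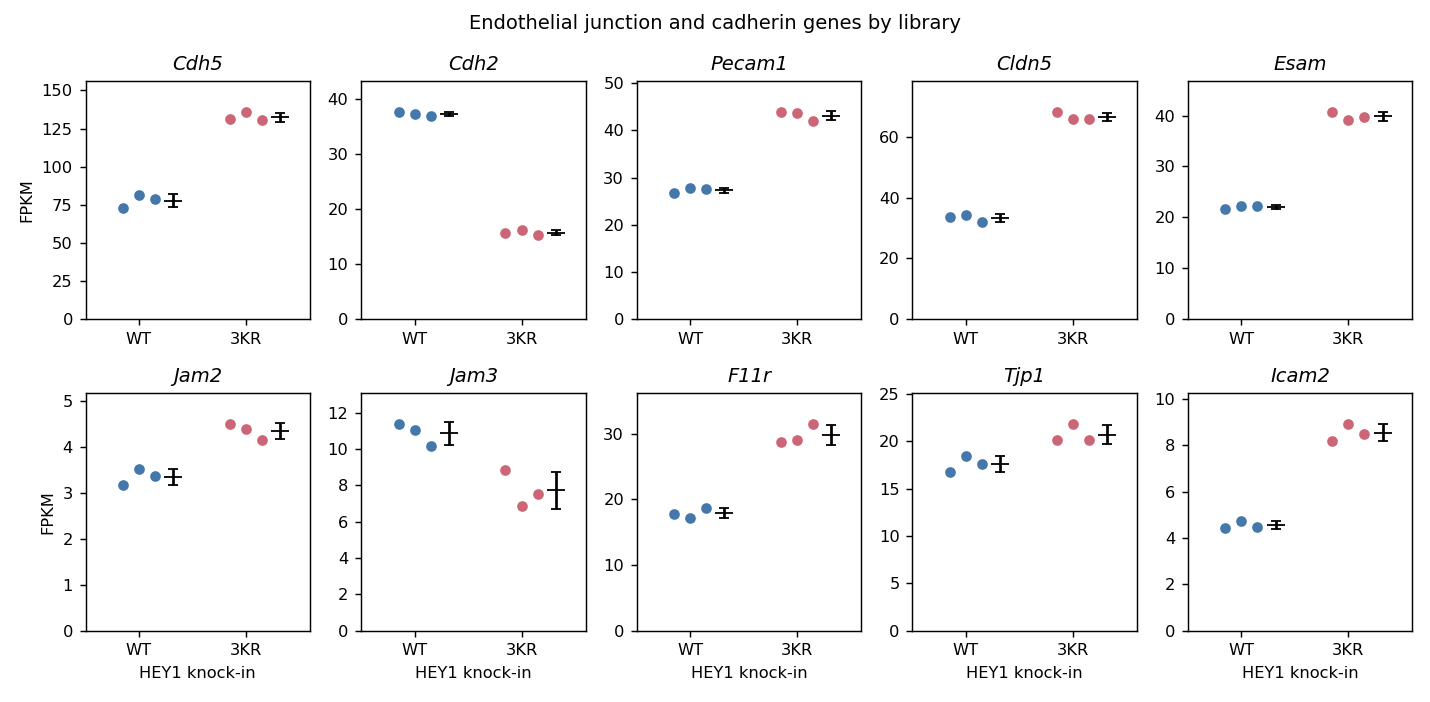
FPKM of each junction gene in each library (points), with the mean and SD of 3 libraries beside them (bars), for HEY1-WT KI (WT, blue) and HEY1-3KR KI (3KR, red); each vertical axis starts at 0. The points of the genotypes do not overlap in any panel, and Cdh2 and Jam3 are lower in HEY1-3KR KI.

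Cdh5, VE-cadherin, the adhesive receptor of endothelial adherens junctions, lies on chromosome 8 at 104101613 to 104144504 (GRCm38, RefSeq). It read 72.8, 81.5 and 78.9 FPKM in HEY1-WT KI against 131.3, 135.8 and 130.4 FPKM in HEY1-3KR KI. Every HEY1-3KR KI library was at least 48.9 FPKM above every HEY1-WT KI library. The mean rose from 77.7 ± 4.44 to 132.5 ± 2.89 FPKM (SD, n = 3 libraries per genotype), 1.70-fold, a log2 fold change of 0.76 ± 0.0449 (SE; limma, adjusted p = 1.74e-06).

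Cdh2, N-cadherin, lies on chromosome 18 at 16588877 to 16809246. It read 37.6, 37.2 and 36.8 FPKM in HEY1-WT KI against 15.6, 16.1 and 15.2 FPKM in HEY1-3KR KI. The libraries of each genotype were close together and the genotypes were 20.7 FPKM apart at their nearest. The mean fell from 37.2 ± 0.361 to 15.7 ± 0.457 FPKM, with a log2 fold change of -1.20 ± 0.0362 (limma, adjusted p = 4.74e-08). Of the 2671 genes that fell in these libraries, Cdh2 stood at position 69 by size of log2 fold change. The other cell types in which Cdh2 is known did not move one way. Fibroblast markers rose in 7 of 8 tested genes, among them Pdgfra from 17.4 to 25.9 FPKM. Of 9 tested smooth muscle and pericyte genes 2 rose, 3 fell and 4 did not pass, with Acta2 at an adjusted p of 0.447 in limma. Of 6 tested mesothelial genes 3 rose (Upk3b, Lrrn4 and Krt19, the last also in the epithelial list) and Msln and Upk1b fell. Msln, mesothelin, fell from 113.6 ± 0.932 to 58.8 ± 0.118 FPKM. The part of these cells in the change of Cdh2 was not tested.

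The ratio of Cdh5 to Cdh2 within a library does not depend on the scaling between libraries. It was 1.94, 2.19 and 2.14 in HEY1-WT KI against 8.41, 8.41 and 8.56 in HEY1-3KR KI. The mean ratio went from 2.09 ± 0.133 to 8.46 ± 0.085 (SD, n = 3), a difference of 2.02 on the log2 scale or 4.05-fold. The difference was many times the spread between libraries, and the exact two-sided permutation p was 0.1, the smallest that 3 against 3 libraries allow. Of that difference on the log2 scale the fall of Cdh2 was the larger part, at 2.37-fold, and the rise of Cdh5 the smaller, at 1.70-fold. Whether transcripts of Cdh5 and Cdh2 came from the same cells was not tested.

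Over the 21 genes named Cdh with a number, summed FPKM was 128.8 ± 4.57 in HEY1-WT KI against 182 ± 3.99 in HEY1-3KR KI. Cdh5 held 60.3% ± 1.33 of it in HEY1-WT KI against 72.8% ± 0.0306 in HEY1-3KR KI, and Cdh2 held 28.9% ± 1.26 and 8.60% ± 0.0882. Cdh11, a cadherin of mesenchymal cells, took the second place from Cdh2, with 5.28% ± 0.173 and 11.1% ± 0.0883. Cdh1, E-cadherin of epithelium, held 1.93% ± 0.103 and 3.96% ± 0.104. Cdh2 was thus the sole one of these 4 cadherins that fell.

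**Figure D2:**
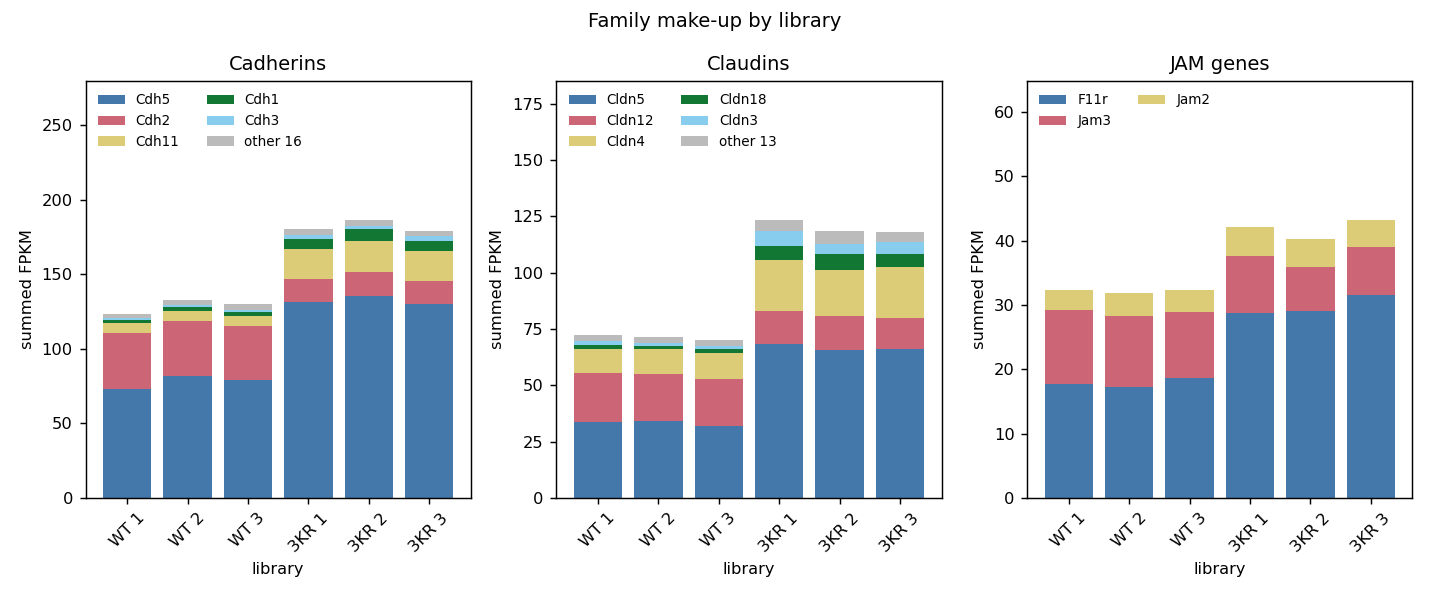
Stacked bars of summed FPKM in each of the 6 libraries for genes named Cdh with a number (left), genes named Cldn with a number (middle) and the 3 JAM genes F11r, Jam3 and Jam2 (right); colours mark the genes of highest mean and grey the others. Cdh5, Cldn5 and F11r are the largest part of their families in every library, while Cdh2, Cldn12 and Jam3 are smaller in HEY1-3KR KI.

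Pecam1 (CD31), an adhesion receptor of endothelial borders that leukocytes and platelets also carry, lies on chromosome 11 at 106654213 to 106715281. It read 26.7, 27.7 and 27.6 FPKM in HEY1-WT KI against 43.9, 43.6 and 42.0 FPKM in HEY1-3KR KI, without overlap. The rise was 1.58-fold, a log2 fold change of 0.64 ± 0.0355 (limma, adjusted p = 1.25e-06). Icam2, a ligand of leukocyte integrins that sits at endothelial junctions, lies on the same chromosome at 106377656 to 106388139. It was a low gene, at 4.42, 4.75 and 4.50 FPKM in HEY1-WT KI against 8.19, 8.93 and 8.51 FPKM in HEY1-3KR KI. Its rise was 1.87-fold, a log2 fold change of 0.78 ± 0.0494 (limma, adjusted p = 2.69e-06). Both genes are also known from blood cells, and all 12 macrophage and leukocyte markers rose, among them Ptprc, the pan-leukocyte phosphatase CD45, from 1.96 to 3.08 FPKM and Csf1r from 13.7 to 40.1 FPKM. Of 8 platelet and megakaryocyte genes only Pf4 reached the filter on low values, and it rose from 36.0 to 172.9 FPKM. Below the filter, Ppbp read 0.108 and 0.661 FPKM and Itga2b 0.832 and 0.494 FPKM, and Gp6 was listed at 0 in all libraries. The part of leukocytes and platelets in the values of Pecam1 and Icam2 was not tested.

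Esam, an endothelial adhesion molecule of tight junctions, lies on chromosome 9 at 37528089 to 37538319. It read 21.6, 22.2 and 22.3 FPKM in HEY1-WT KI against 40.7, 39.0 and 39.8 FPKM in HEY1-3KR KI. The libraries of each genotype differed by little and the genotypes by 16.7 FPKM at their nearest, a log2 fold change of 0.83 ± 0.0347 (limma, adjusted p = 2.67e-07).

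The JAM genes, whose proteins bind each other across the junction, did not move together. F11r (JAM-A), which epithelium, platelets and leukocytes also express, lies on chromosome 1 at 171437561 to 171464593. It read 17.7, 17.2 and 18.7 FPKM in HEY1-WT KI against 28.8, 29.0 and 31.5 FPKM in HEY1-3KR KI. All HEY1-3KR KI libraries were higher, a 1.66-fold rise with a log2 fold change of 0.70 ± 0.0484 (limma, adjusted p = 4.47e-06). Jam2 (JAM-B), a JAM of vascular endothelium and the partner of JAM-C, lies on chromosome 16 at 84774123 to 84826380 and was the lowest of the 10 genes. It read 3.17, 3.51 and 3.37 FPKM in HEY1-WT KI against 4.50, 4.38 and 4.15 FPKM in HEY1-3KR KI. Its groups were 0.636 FPKM apart at their nearest, and the rise was small, a log2 fold change of 0.30 ± 0.0538 (limma, adjusted p = 0.00159).

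Jam3 (JAM-C), on chromosome 9 at 27097384 to 27155421, fell while the other JAM genes rose. It read 11.4, 11.1 and 10.2 FPKM in HEY1-WT KI against 8.84, 6.84 and 7.52 FPKM in HEY1-3KR KI. It was the least even of the 10 genes within a genotype, and the groups were 1.34 FPKM apart at their nearest. The mean went from 10.9 ± 0.626 to 7.73 ± 1.02 FPKM, with a log2 fold change of -0.45 ± 0.0815 (limma, adjusted p = 0.00163). In GENCODE M21 (GRCm38) an antisense gene, Gm48796, shares 1159 of the 3200 exon bases of Jam3. Whether counting used strand is not stated in the sources, so reads of Jam3 and of its antisense partner cannot be told apart and the value of Jam3 is uncertain. None of the other 9 genes shared exon bases with another annotated gene. Of the summed FPKM of the 3 JAM genes, F11r held 55.7% ± 2.01 in HEY1-WT KI against 71.1% ± 2.46 in HEY1-3KR KI, Jam3 33.9% ± 2.01 and 18.5% ± 2.18, and Jam2 10.4% ± 0.628 and 10.4% ± 0.69.

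Cldn5, claudin-5, the main sealing claudin of endothelial tight junctions, is a gene with a single exon on chromosome 16 at 18776847 to 18778262. It read 33.6, 34.3 and 31.9 FPKM in HEY1-WT KI against 68.1, 65.7 and 65.8 FPKM in HEY1-3KR KI. It had the largest rise of the 10 genes, from 33.3 ± 1.25 to 66.5 ± 1.35 FPKM, with a log2 fold change of 0.98 ± 0.0383 (limma, adjusted p = 1.74e-07). That put it at position 269 of the 3413 genes that rose. Among the 18 genes named Cldn with a number, Cldn5 made up 46.6% ± 1.29 of their summed FPKM in HEY1-WT KI against 55.5% ± 0.296 in HEY1-3KR KI, and Cldn12 held 29.8% ± 0.532 and 12.2% ± 0.354. Cldn4, a claudin of epithelium, held 15.5% ± 0.852 and 18.2% ± 0.906.

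Tjp1, ZO-1, the scaffold that binds claudins and JAMs and is used by many cell types, lies on chromosome 7 at 65296165 to 65527850. It read 16.7, 18.4 and 17.6 FPKM in HEY1-WT KI against 20.1, 21.8 and 20.1 FPKM in HEY1-3KR KI. The groups were separate by 1.70 FPKM, and the rise of 1.18-fold was the smallest of the 8, a log2 fold change of 0.22 ± 0.0493 (limma, adjusted p = 0.00489). Per molecule of Cldn5 transcript there was less Tjp1: the ratio of Tjp1 to Cldn5 was 0.498, 0.536 and 0.553 in HEY1-WT KI against 0.295, 0.332 and 0.305 in HEY1-3KR KI.

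HEY proteins bind E-box sequences, and promoter sequences in the RefSeq table (GRCm38.p6) matched 3 of the 10 genes: Cldn5, F11r and Tjp1, the largest, an intermediate and the smallest rise. The 250 bases before each annotated start are shown 5′ to 3′ on the strand of the gene, with capitals marking a match to CACGTG or CACGCG, E-box forms bound by HEY factors, or to GGAAG, the core of sites for ETS factors, which act at many endothelial genes; both strands were searched.
Cldn5, chr16:18776597-18776846, plus strand: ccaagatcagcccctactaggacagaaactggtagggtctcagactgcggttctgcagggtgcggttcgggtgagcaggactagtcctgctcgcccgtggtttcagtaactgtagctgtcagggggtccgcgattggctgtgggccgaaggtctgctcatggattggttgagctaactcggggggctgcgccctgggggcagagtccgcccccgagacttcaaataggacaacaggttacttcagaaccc
F11r, chr1:171437311-171437560, plus strand: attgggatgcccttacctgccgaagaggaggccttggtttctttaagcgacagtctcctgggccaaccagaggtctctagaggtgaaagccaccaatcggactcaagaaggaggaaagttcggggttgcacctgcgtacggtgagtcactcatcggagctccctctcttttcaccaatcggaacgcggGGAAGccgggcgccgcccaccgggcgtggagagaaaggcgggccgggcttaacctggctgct
Tjp1, chr7:65371245-65371494, minus strand: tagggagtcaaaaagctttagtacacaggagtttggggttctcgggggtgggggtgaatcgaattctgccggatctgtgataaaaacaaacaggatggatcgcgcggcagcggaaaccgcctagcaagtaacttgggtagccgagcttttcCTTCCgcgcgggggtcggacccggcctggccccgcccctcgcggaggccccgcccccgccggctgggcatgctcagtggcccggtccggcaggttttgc
None of the 3 windows held CACGTG or CACGCG, which were found in 6.0% and 7.6% of 32851 promoter windows of the same length. F11r had GGAAG from 62 to 58 bases before its start and Tjp1 its reverse complement CTTCC from 99 to 95 bases before, and these matches did not overlap another. GGAAG, on either strand, was in 64.1% of all windows, so its presence is common, and no match says only that these letters are not in these windows. GC content was 59.6%, 60.0% and 63.2% for Cldn5, F11r and Tjp1, above the median of 52.4% over all windows. The start used for Tjp1 lies inside the annotated span of the gene, which reaches further upstream.

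The order of levels shifted with these changes. In HEY1-WT KI the order by mean FPKM was Cdh5, Cdh2, Cldn5, Pecam1, Esam, F11r, Tjp1, Jam3, Icam2 and Jam2, and the values of the neighbours F11r and Tjp1 overlapped. In HEY1-3KR KI it was Cdh5, Cldn5, Pecam1, Esam, F11r, Tjp1, Cdh2, Icam2, Jam3 and Jam2, and those of Icam2 and Jam3 overlapped. Cdh2 thus went from the second to the seventh place. The 10 genes summed to 251.8 ± 6.01 FPKM in HEY1-WT KI against 368.8 ± 3.35 FPKM in HEY1-3KR KI.

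**Figure D3:**
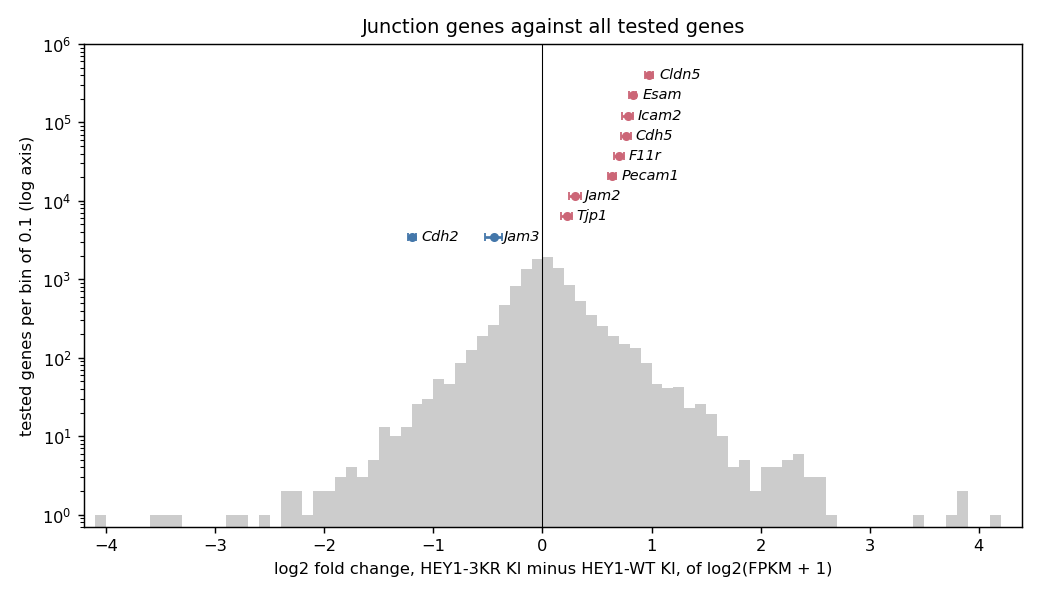
Log2 fold change (HEY1-3KR KI minus HEY1-WT KI) of log2(FPKM + 1) for the junction genes (points with SE, spread vertically for reading only) above a histogram of the 11427 tested genes in bins of 0.1, with the number of genes on a log axis. Cdh2, at -1.20, lies in the left tail, and 6 of the 8 genes that rose lie between 0.64 and 0.98.

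Other endothelial genes also rose, so the junction genes were set against them in the same library. Of the 20 tested endothelial genes that are not junction genes 18 rose and 0 fell, while Mmrn2 and Emcn did not pass (median log2 fold change 0.65), and their summed FPKM rose 1.75-fold, from 193.3 ± 3.72 to 338.8 ± 4.77. Kdr, the main VEGF receptor, went from 4.50 to 6.17 FPKM and Tek, the angiopoietin receptor TIE2, from 3.59 to 6.90 FPKM. Relative to that sum, Cdh5 overlapped between the genotypes, at 37.0%, 42.0% and 41.7% in HEY1-WT KI against 39.2%, 40.2% and 37.9% in HEY1-3KR KI (difference -0.04 on the log2 scale, exact permutation p = 0.6). Esam, Icam2 and F11r likewise overlapped between the genotypes, with differences of 0.04, 0.10 and -0.07. Cldn5 was higher by 0.19, at 17.2% ± 0.431 and 19.6% ± 0.625 of the sum, without overlap. Pecam1, Jam2 and Tjp1, which rose in FPKM, were lower relative to the sum, by -0.15, -0.43 and -0.58, and Jam3 and Cdh2 were lower by -1.31 and -2.06, all 5 without overlap. Cdh2 went from 19.2% ± 0.19 to 4.62% ± 0.181 of the sum. For the 6 genes without overlap the exact two-sided permutation p was 0.1, the smallest that 3 against 3 libraries allow, or 0.167 after Benjamini-Hochberg adjustment over the 10 genes, so none could pass. Several of these differences moved when Plvap, the highest gene of the endothelial list, was left out. With Plvap left out of the sum, Cdh5 and F11r turned to 0.11 and 0.07, Pecam1 went to -0.01 (exact permutation p = 0.8), and Cldn5, Esam and Icam2 went to 0.34, 0.19 and 0.24. Cldn5 was at the smallest exact p of 0.1 with either sum, and Cdh5, Esam and Icam2 only without Plvap. The geometric mean of the 20 tested endothelial genes, Plvap among them, gave values close to those of the full sum. Against it Cdh5, Esam, Icam2 and Pecam1 differed by -0.04, 0.04, 0.09 and -0.16 (exact permutation p = 0.4, 0.3, 0.2 and 0.1). The reading of these genes thus changed with Plvap left out of the sum but not with the geometric mean. Cdh2, Jam3, Tjp1 and Jam2 were lower with either sum.

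**Figure D4:**
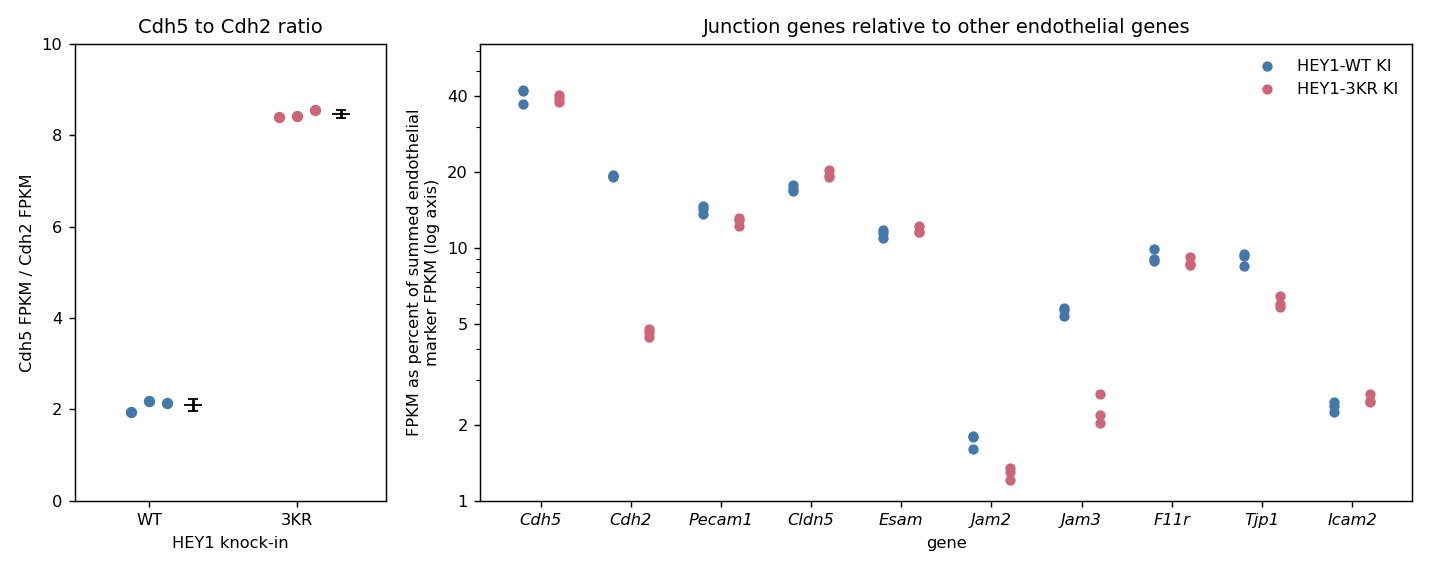
Left, the ratio of Cdh5 FPKM to Cdh2 FPKM in each library (points) with the mean and SD of 3 libraries (bars). Right, each junction gene as a percent of the summed FPKM of 21 other endothelial genes of the same library, on a log axis. The ratio is near 2.09 in HEY1-WT KI against 8.46 in HEY1-3KR KI, and the points overlap for Cdh5, Esam, F11r and Icam2.

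Most listed cytoplasmic and membrane partners of the adherens junction did not rise with Cdh5. Of 14 listed genes, all tested, 2 rose, 8 fell and 4 did not pass (median log2 fold change -0.16). Over all tested genes 29.9% were higher and 23.4% lower. The cultures held strong signal of other cell types, and the part of those cells in the values of this list was not tested. Jup, plakoglobin, a catenin that links VE-cadherin to the cytoskeleton, rose from 15.3 ± 0.87 to 27.2 ± 0.256 FPKM, with a log2 fold change of 0.79 ± 0.0452 (limma, adjusted p = 1.44e-06). Ptprb, the phosphatase VE-PTP that associates with VE-cadherin, rose from 1.96 ± 0.144 to 4.75 ± 0.242 FPKM. Among those that fell were Nectin1, an adhesion molecule that binds afadin, from 8.04 ± 0.564 to 5.26 ± 0.197 FPKM, and Vcl, vinculin, from 50.0 ± 2.21 to 39.2 ± 1.58 FPKM. The other catenins of the list, all at higher levels than Jup, did not rise. Ctnnb1 fell from 187.4 to 155.8 FPKM and Ctnna1 from 79.3 to 70.0 FPKM, and Ctnnd1 did not pass, at 48.1 and 47.7 FPKM.

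Of 22 listed tight junction genes 15 were tested, and 8 rose, 4 fell and 3 did not pass (median log2 fold change 0.23). The shares over all tested genes were 29.9% higher and 23.4% lower. Cldn18, a claudin of alveolar epithelium, rose from 1.59 ± 0.152 to 6.38 ± 0.629 FPKM, and Lsr, a protein of junctions where 3 cells meet, from 1.79 ± 0.0382 to 3.92 ± 0.284 FPKM. Cgnl1, paracingulin, fell from 38.6 ± 1.81 to 20.2 ± 0.612 FPKM, with a log2 fold change of -0.90 ± 0.0443 (limma, adjusted p = 6.36e-07), and Cldn12 fell from 21.2 ± 0.525 to 14.7 ± 0.497 FPKM. In the same libraries 10 of 11 tested epithelial genes rose, and the 12 listed summed to between 102 and 116 FPKM in HEY1-WT KI against 362 to 392 FPKM in HEY1-3KR KI. Epcam went from 0.896 to 3.87 FPKM and Cdh1 from 2.49 to 7.22 FPKM. Cldn18 is in both lists, and the part of epithelial cells in these values and in that of F11r was not tested.

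Of 18 tested regulators of endothelial junctions, 7 rose, 3 fell and 8 did not pass (median log2 fold change 0.06). Over all tested genes 53.2% were called, 29.9% higher and 23.4% lower, so the share called in this list was near that of all genes. The list holds genes of RAP1 and CCM signalling and also others, such as Kdr, Src and Fgd5, and Kdr is in the endothelial list too. Rasip1, a RAS and RAP1 effector needed for vessel lumens, rose from 6.26 ± 0.485 to 15.2 ± 0.792 FPKM, with a log2 fold change of 1.16 ± 0.0606 (limma, adjusted p = 8.86e-07). Fgd5, an endothelial exchange factor for CDC42, rose from 3.14 ± 0.099 to 6.03 ± 0.181 FPKM, and Rapgef4, a cyclic AMP-gated exchange factor for RAP1, from 0.842 ± 0.0902 to 1.40 ± 0.0591 FPKM. Those that fell were Krit1, a CCM protein, Rapgef3, the relative of Rapgef4 known as EPAC1, and the kinase Src.

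Of 10 tested other cadherins and protocadherins 8 rose, and Cdh13, T-cadherin, and Clstn1, calsyntenin-1, fell (median log2 fold change 0.44). The shares over all tested genes were 29.9% higher and 23.4% lower. Cdh1 is also in the epithelial list and Cdh13 in that of adherens junction partners. Cdh11 rose from 6.79 ± 0.116 to 20.2 ± 0.348 FPKM, with a log2 fold change of 1.45 ± 0.0382 (limma, adjusted p = 2.22e-08), the opposite direction to Cdh2. Pcdh12, a protocadherin of endothelium, rose from 1.54 ± 0.0949 to 2.91 ± 0.113 FPKM and Pcdh1 from 10.4 ± 0.422 to 14.2 ± 0.336 FPKM. Transcription factors known for switching cadherins in other settings went both ways: of 7 tested, Snai1, Zeb1 and Tcf4 rose, Snai2, Twist1 and Prrx1 fell and Zeb2 did not pass (median log2 fold change 0.08). Snai1, a repressor of E-cadherin, went from 20.3 ± 1.67 to 28.1 ± 2.86 FPKM and Twist1 from 1.42 ± 0.181 to 0.798 ± 0.122 FPKM.

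**Figure D5:**
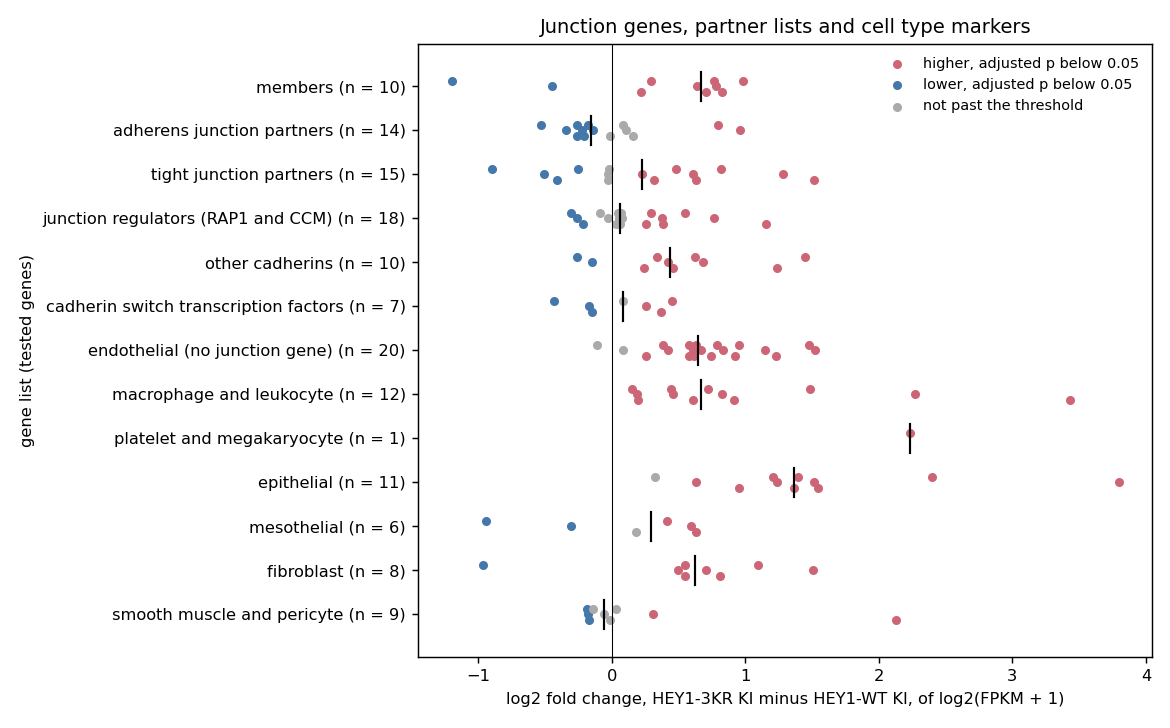
Log2 fold change (HEY1-3KR KI minus HEY1-WT KI) of log2(FPKM + 1) for each tested gene of the junction set (members), of the partner lists and of the cell type marker lists; red and blue points passed an adjusted p below 0.05, grey points did not, and black bars are medians. The members have a median of 0.67, close to the 0.65 of other endothelial genes, while adherens junction partners have -0.16. Macrophage and leukocyte genes (0.67) and fibroblast genes (0.63) have medians as close, so this likeness is not particular to endothelial genes.

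The genes whose pattern over the 6 libraries was most like that of Cdh5, by the root-mean-square difference of log2(FPKM + 1) after each gene was centred on its own mean, were Pxdn, a matrix peroxidase, at 0.0176, Aspm, a spindle protein, at 0.0199 and Ltbp2, a matrix protein, at 0.0219. For Cdh2 they were Map6, a microtubule-binding protein, at 0.033, Tmem37, a membrane protein, at 0.0353 and Aebp1, a matrix-associated protein, at 0.0393. Aebp1 fell from 166.5 ± 6.16 to 73.7 ± 2.21 FPKM, and Pxdn rose from 25.2 ± 1.33 to 43.3 ± 1.86 FPKM. With 6 libraries in 2 genotypes this likeness is mostly that of the difference between genotypes.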

How the data were processed

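RNA-seq of 6 MLEC libraries was analysed from 1 table. Its values are FPKM, per the file headers, in 6 columns that the authors deposited unpooled. Build mm10, StringTie 1.3.3b, HISAT2 2.1.0, SAMtools 1.9 and FastQC 0.19.7 are named in the submitters' processing notes; the annotation, the use of strand and how transcripts were joined into genes are not stated there. For 12 symbols on more than 1 entry the entry of highest mean was kept (17450 symbols). Low values of 2396 genes with a single GENCODE transcript were searched for a step of 1 read. At the best of many steps tried in each library, 43.9% to 52.5% lay within 0.1 of a whole multiple. An even spread gives 20% at a fixed step, and the best of many steps can exceed that. Whole reads were not recovered, so depth is unknown and no count test was run. Since FPKM is relative to the total of a library, more of some transcripts means less of others; no scaling was added.

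Genes that reached 1 FPKM in 3 or more libraries were compared with limma 3.58.1 (R 4.3.3; log2 with a pseudocount of 1, variance trend, two-sided, no covariates, Benjamini-Hochberg over 11427 genes); the script was tested on simulated data. Ratios used exact permutation tests over libraries. Alternatives were pseudocounts, filters, scalings, a replicate block and leaving out each library. Tables and figures used Python 3.11.15, numpy 2.4.6, pandas 2.3.3, matplotlib 3.10.9 and scipy 1.17.1. Positions are those of RefSeq for GRCm38.p6 (mm10), and gene overlaps from GENCODE M21. The 10 genes and the gene lists were chosen with earlier results of these data known. All 10 genes were named, with up to 4 tested genes of smallest adjusted p in each partner list, markers of highest mean or that define a cell type, and the 3 genes closest in pattern to Cdh5 and to Cdh2; 1 gene that this rule names in the list of RAP1 and CCM regulators is not reported here. Genes named to complete a count of 5 or fewer, the catenins other than Jup, and the claudin and cadherin family shares were chosen after their values were seen.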

Additional observations from a re-analysis of the deposited data

How the results depend on the processing

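Under 7 other settings (pseudocounts of 0.1 and 0.5, no filter, a filter of 5 FPKM, median-of-ratios scaling, quantile normalization, replicate block) and without each library in turn, every junction gene tested kept its direction and an adjusted p below 0.05 in limma; Jam2 was not tested at 5 FPKM. Tjp1 came nearest the threshold (adjusted p from 0.00299 with the replicate block to 0.0184 after quantile normalization). The count of genes called was 4269 at 5 FPKM, where 7414 were tested, 6748 with no filter, and between 5168 and 5469 with a library left out. Calls split into 3413 higher and 2671 lower as deposited and 2912 and 3293 after quantile normalization. The log2 difference of the Cdh5 to Cdh2 ratio was 1.96 with a pseudocount of 1 and between 1.97 and 2.05 with a library left out. Relative to the endothelial sum 7 of the 10 genes were lower, and 7 also with the geometric mean of the list in its place. Without Plvap in the sum 5 were lower, and Cdh5 (0.1053) and F11r (0.0691) reversed. The change in the sum is the construction of that alternative. Same-numbered libraries did not deviate together as a set (correlations of -0.19, 0.25 and -0.27), and differently numbered ones reached up to 0.38. So few libraries cannot settle whether any were paired. With the replicate block 6140 genes and all 10 junction genes were called. The Cdh5 to Cdh2 difference was then 2.02 (exact permutation p = 0.25, the smallest that 3 pairs allow). Read depth is unknown, so no floor is given for genes listed near 0.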

Other observations

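Several marker lists did not move as one. Mesothelial genes went both ways: Msln and Upk1b fell, the latter from 28.2 ± 0.979 to 22.7 ± 0.572 FPKM, Wt1 did not pass, and 3 rose. Of these Upk3b, uroplakin 3B, rose from 4.85 ± 0.0383 to 7.81 ± 0.218 FPKM and Lrrn4 from 6.75 ± 0.305 to 9.31 ± 0.833 FPKM. Among fibroblast genes 7 rose, including Col1a1 from 316.5 ± 4.24 to 676.3 ± 11.9 FPKM, and Pdpn, podoplanin, which mesothelium and lymphatic endothelium also express, fell from 72.9 ± 2.29 to 37.0 ± 1.02 FPKM. Kcnj8, a potassium channel subunit of pericytes, rose from 1.88 ± 0.0653 to 11.6 ± 0.45 FPKM, while Rgs5, another pericyte gene, was below the filter on low values at 0.216 ± 0.0528 and 0.264 ± 0.0985 FPKM. Pf4, platelet factor 4, rose from 36.0 ± 1.93 to 172.9 ± 3.8 FPKM in libraries where Itga2b, Gp1ba, Gp1bb, Gp9, Ppbp and Treml1 each averaged below 1 FPKM. These genes were picked after their values were seen.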
